A study of Oreochromis niloticus with 24 samples.

Results

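The genes described here were high in LH cells of the Nile tilapia pituitary, lower in the negative cells and lowest in FSH cells, in males and in females. They were chosen by their values: among the 1309 genes that stood in both the male and the female table, a gene was taken when its mean log2 level in LH cells exceeded that in FSH cells by more than 1, and its mean in FSH cells lay more than 1 below that in negative cells, both in each sex. In all, 87 genes met these limits. Of 10 genes left out by name, 8 were among them, and 79 genes remained. The differences between LH, FSH and negative cells within a sex are therefore given as a description. Where calls within a sex are counted, they stand beside the share called in the whole table and support nothing.

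The libraries came from mature fish that carry red fluorescent protein under the LH promoter and green fluorescent protein under the FSH promoter, so that both cell types are labelled in the same fish. The cells of dispersed glands were separated by their colour into LH cells, FSH cells and negative (non-fluorescent) cells. Each sort began from a pool of 20 pituitaries of one sex, per the series design, and was carried out 4 times per sex, which gave 4 libraries for each of 6 groups and 24 libraries in all. All fish carried the transgenes, so no group stands for wild-type animals. The methods of the study give a range of pool sizes, so the pools were not all of that size. A library stands for a pool and not for a single fish.

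In teleosts LH and FSH are made in separate cells, whereas one mammalian gonadotroph can make both. Each hormone is a pair of a shared alpha subunit, encoded by cga, and its own beta subunit, encoded by lhb or fshb. Both cell types respond to gonadotropin-releasing hormone from the brain through receptors, ion channels and calcium, and release the hormones from secretory vesicles. The negative cells hold the rest of the gland, which includes the cells that make growth hormone, prolactin, thyrotropin and corticotropin, as well as support, vessel and immune cells.

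Levels are normalized reads (NR), that is, a gene's reads divided by one size factor per library. They are not divided by transcript length, so levels are compared between cells and not between genes, and the sexes were scaled separately. The fractions carried their own hormone genes: lhb was at 10131, 4353, 3970.5 and 4158 NR in the male LH libraries against 9.36 to 30.6 in FSH and 2.64 to 34.3 in negative libraries, and at 1678, 1123, 1035 and 1504 in the female LH libraries against 11.8 to 13.9 and 2.74 to 12.3. The highest fshb level outside FSH cells was 341 NR, against at least 24856 NR in every FSH library. The shared cga was at 7221 to 20688 NR in male LH and 1109 to 3529 in male negative libraries. In females cga was at 1806 to 3484 NR in LH and 1489 to 2949 in negative libraries, which overlapped. Its FSH levels were the highest, at 30519 NR or more in males and 15044 or more in females. Reads on the genes of the tables ranged from 69091 to 2004647 per library, and 3 reads, taken as the limit of detection for counting error only, equal 1.22 to 7.21 NR. Values in the text follow the order of sorts 1 to 4.

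The 79 genes together took 1.55 to 3.34% of the table reads in male LH libraries, 1.43 to 2.26% in male negative libraries and 0.0550 to 0.0934% in male FSH libraries. In females the shares were 4.29 to 6.88%, 2.33 to 4.03% and 0.0554 to 0.0785%. These shares also depend on the other genes of the tables, with fshb and cga very high in FSH libraries. They are therefore no measure of the fold between fractions. The mean of log2(NR + 1) over the 79 genes was 5.95, 6.71, 6.98 and 6.68 in the male LH libraries, 5.02, 5.23, 4.83 and 4.74 in the negative libraries and 2.39, 2.43, 2.11 and 1.89 in the FSH libraries. In females it was 5.98, 6.65, 6.04 and 6.31 in LH, 4.98, 4.28, 5.11 and 4.69 in negative and 1.27, 1.32, 1.29 and 1.39 in FSH libraries. No library of one fraction reached into the range of another. In both sexes the lowest LH library was sort 1, which was also the one with the highest lhb level.

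**Figure D1:**
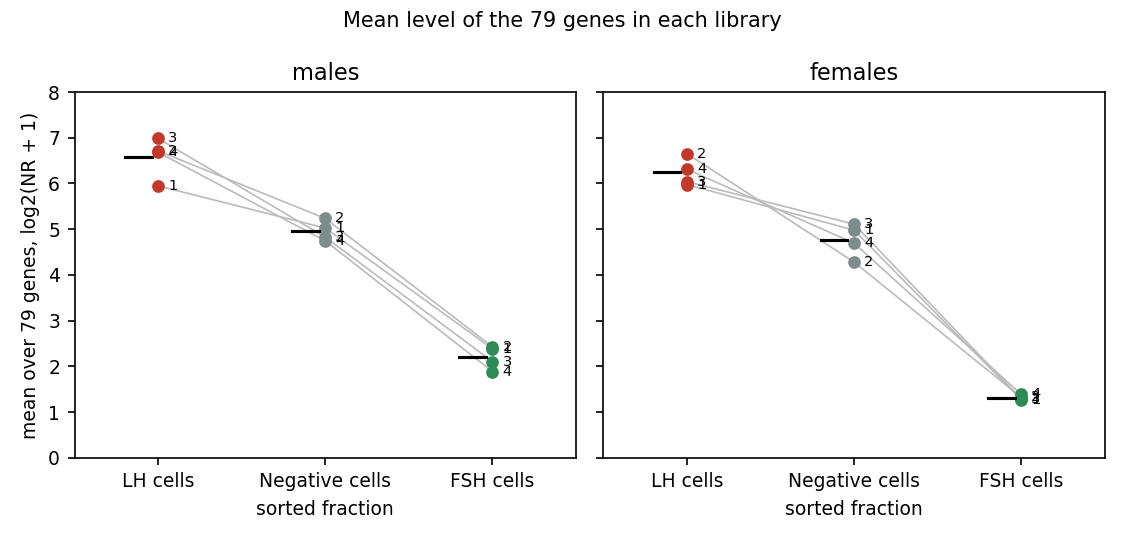
Mean of log2(NR + 1) over the 79 genes in each library (y axis) by sorted fraction (x axis), males on the left and females on the right. Points are libraries, numbers are the sorts, grey lines join the fractions of a sort and short black lines are group means. The LH libraries lie between 5.95 and 6.98, the negative ones between 4.28 and 5.23 and the FSH ones between 1.27 and 2.43.

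Gene by gene, LH minus FSH on the log2(NR + 1) scale had a median of 4.24 in males (2.24 to 7.32) and 4.54 in females (2.56 to 9.15), beside -0.79 and -1.12 over the 1309 genes. FSH minus negative had a median of -2.61 in males and -3.15 in females, beside 1.77 and 1.46 over the 1309 genes. These differences are those that chose the genes. LH minus negative had a median of 1.60 in males (0.75 to 2.59) and 1.44 in females (0.89 to 2.41), beside 1.08 and 0.45, and exceeded 1 in both sexes for 69 of the 79 genes. The tables hold only genes whose fold change over negative cells passed the authors' limit in LH or in FSH cells. A gene that is lowest in FSH cells could thus enter only through LH cells. The order of LH above negative was fixed by that choice as well. Not every member was significant there: in the paper, LOC100702425 passed by its fold change in female LH cells without a significant p-value.

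With limma, a log2 difference above 1 and an adjusted p below 0.05, all 79 genes were called higher in LH than in FSH cells in males (14.9% of the male table) and in females (24.5% of the female table). For negative above FSH the counts were 76 in males (7.53% of the table) and 79 in females (18.8%). For LH above negative they were 70 in males (51.2%) and 62 in females (28.5%). By the libraries themselves, LH lay above FSH without overlap for 78 genes in males (14.7% of the table) and for 79 in females (24.1%), and the exception was LOC100691061 in males. Negative lay above FSH without overlap for 71 genes in males (6.81%) and 77 in females (17.6%). LH lay above negative without overlap for 52 in males (55.0%) and 55 in females (28.2%), and for 33 in both sexes. Nothing is read from these counts, since the same libraries chose the genes.

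The level that remained in FSH cells was often near the limit of detection. In males 12 of the 79 genes had no FSH library above 3 reads, in females 49, and 11 were of this kind in both sexes. In females 8 genes had no read in any of the 4 FSH libraries and a further 21 had 1 to 3 reads in all. Folds are therefore given only where more than 3 reads were counted over the 4 FSH libraries, as the ratio of mean NR. They had a median of 27.1 over 75 genes in males (4.65 to 226) and 25.9 over 50 genes in females (9.45 to 462). For the 8 genes with no read, a lower bound was computed against 3 reads in each FSH library, and these bounds ran from 1.34 to 148.

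The level in negative cells was, in the median, 31.4% of that in LH cells in males (16.0 to 49.9%) and 37.7% in females (13.8 to 53.0%). For lhb the same share was 0.278% in males and 0.563% in females, below that of each of the 79 genes. In the single sorts the median share over the 79 genes was 51.8, 36.5, 23.2 and 26.4% in males and 52.3, 18.8, 51.7 and 37.2% in females, while that of lhb stayed between 0.0664 and 1.14%. In bulk samples fewer cells of a type and less RNA per cell cannot be told apart, so the negative level may come from many cells or from a few.

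**Figure D2:**
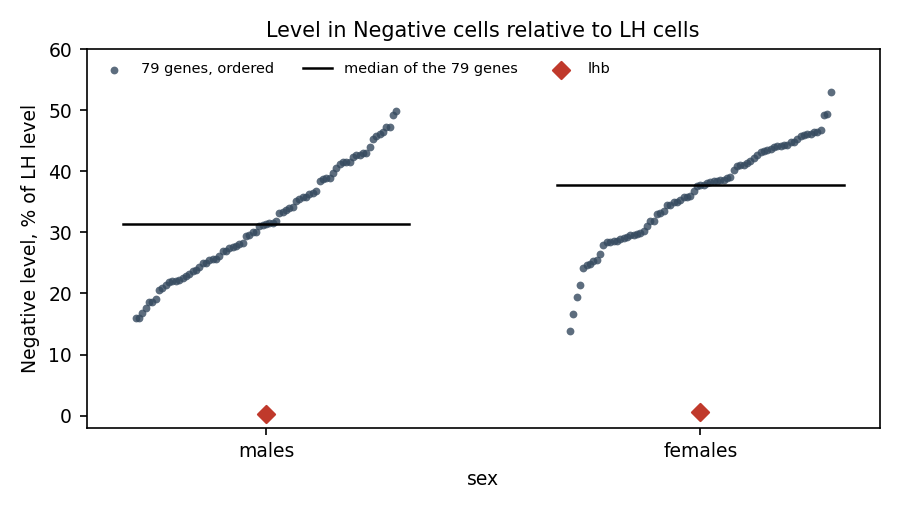
Mean level in negative cells as a percentage of the mean level in LH cells (y axis) in males and females (x axis). Dots are the 79 genes in ascending order, black lines their medians of 31.4% and 37.7%, and red diamonds mark lhb, at 0.278% and 0.563%.

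Among receptors and their partners, 7 members carry a name. The gene ptger1a (LOC102080433, linkage group 6, bases 34238799 to 34245206) encodes the prostaglandin E2 receptor EP1, which couples to calcium. In males it stood at 67.5, 164, 161 and 157 NR in LH cells, 54.6, 63.3, 76.4 and 29.2 in negative cells and 0.936, 0, 3.69 and 0 in FSH cells. In females it stood at 69.9, 122, 65.6 and 69.8 NR in LH cells, 44.8, 35, 25.9 and 46.1 in negative cells and 1.4, 0, 0 and 0.905 in FSH cells. The male LH and negative libraries overlapped through LH sort 1, at 67.5, 164, 161 and 157 against a highest negative value of 76.4, and the female ones did not. Only 4 reads in males and 3 in females were counted in FSH cells, and the fold was 119-fold in males.

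Of the AMPA-type glutamate receptors, the subunit gria2, which sets the calcium permeability of the channel in mammals, was a member. Male values were 46.6, 67.4, 101 and 62.7 NR in LH cells, 58.9, 30.2, 14.1 and 12.3 in negative cells and 3.74, 0.816, 3.69 and 1.2 in FSH cells. Female values were 77.9, 102, 69.2 and 93.3 NR in LH cells, 27.4, 22.8, 25.9 and 23.1 in negative cells and 0.702, 0, 4.8 and 0 in FSH cells. In males LH and negative overlapped because negative sort 1 was at 58.9 NR, and in females all 4 LH libraries lay above the highest negative value of 27.4. For gabrd, the delta subunit of the GABA-A receptor, the same sort stood out: in males its LH level was 3.22 NR in sort 1 and 29.5 to 35.1 in the others, and its negative level was 21.4 in sort 1 and 7.54 to 9.66 in the others. For kctd12, which in mammals is an auxiliary subunit of GABA-B receptors, LH cells held 70.8, 107, 100 and 86.6 NR in males and 35.7, 132, 91.1 and 124 in females, and FSH cells 7.49, 5.71, 7.37 and 4.8 and 2.11, 0, 2.4 and 0.905.

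The glucagon receptor gene gcgr was present at 43.4, 67.4, 52.1 and 72.8 NR in LH cells, 28.9, 31.7, 23.7 and 26.9 in negative cells and 9.36, 6.53, 2.46 and 4.8 in FSH cells in males. It was present at 37.1, 52.5, 41.9 and 34.5 NR in LH cells, 16.4, 17.5, 24.7 and 13.2 in negative cells and 2.81, 0, 4.8 and 4.53 in FSH cells in females. Its fractions did not overlap in either sex, and its folds of LH over FSH were 10.2-fold and 13.7-fold. The sorting receptor gene sorcs1 (LOC100694180) reached 122, 216, 285 and 256 NR in male LH cells against 3.74, 2.45, 1.23 and 2.4 in FSH cells, and 139.8, 369.9, 199 and 249 against 0.702, 0, 2.4 and 0 in females. LOC100702425 is named tmtopsb after a non-visual opsin in the annotation and pinopsin in the study. Its levels were 22.5, 80.1, 73.9 and 119 NR in male and 44.4, 53.8, 23.7 and 24.4 in female LH cells. Negative cells held 12.9, 22.6, 17.6 and 40.4 NR in males and 35.6, 3.5, 21.2 and 7.69 in females. LH and negative libraries thus overlapped in both sexes, and no read was counted in female FSH cells. Over the 7 genes the median of LH minus FSH was 4.43 in males and 5.36 in females.

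Among ion channels and transporters, asic4 belongs to the acid-sensing channel family. In males it was at 262, 298, 328 and 427 NR in LH cells, 73.9, 112, 52.7 and 74 in negative cells and 7.49, 20.4, 8.6 and 12 in FSH cells. In females it was at 195, 319, 231 and 671 NR in LH cells, 99.6, 29.8, 201 and 71.4 in negative cells and 0.702, 0, 7.21 and 1.81 in FSH cells. In males the 3 fractions did not overlap. In females negative sort 3, at 201 NR, reached the lowest LH value of 195. The FSH level was 7.49 to 20.4 NR in males and 0 to 7.21 in females, and the LH to FSH fold 27.1-fold and 146-fold.

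The gene slc18a1 encodes the vesicular transporter that loads monoamines into secretory vesicles. It was at 80.4, 63.2, 112 and 67.8 NR in LH cells, 23.6, 24.1, 11.4 and 10.1 in negative cells and 6.55, 5.71, 8.6 and 6.0 in FSH cells in males. It was at 31.3, 90.5, 71.1 and 130.3 NR in LH cells, 20.1, 14, 34.1 and 17.6 in negative cells and 3.51, 8.13, 2.4 and 3.62 in FSH cells in females. FSH levels were the lowest in both sexes, and LH and negative libraries overlapped only in females, where LH sort 1 was at 31.3 and negative sort 3 at 34.1 NR. The potassium channel gene kcnk13 had no read in female FSH cells and 1.87, 1.22, 0 and 1.2 NR in male ones, against 26.9, 44.6, 29.2 and 65.6 and 11.3, 33.7, 59.4 and 48.9 in LH cells.

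A further set of channel genes, noticed after the values were seen, followed another order among the male LH libraries than the mean over the 79. The auxiliary calcium channel subunit gene cacna2d3 was at 217, 211, 102 and 76.5 NR, trpc4a, which encodes a receptor-operated cation channel, at 277, 154, 93.7 and 71.5, and pkd1b, of the polycystin family, at 96.5, 96.9, 43.7 and 36.4. All 3 were higher in sorts 1 and 2 than in sorts 3 and 4, whereas the mean over the 79 genes was lowest in sort 1. This order was not particular to channel genes. LOC102079651, at 468, 462, 349 and 338 NR, and LOC106096794, at 40.2, 19.7, 10.4 and 8.78, took it too. The channel genes asic4 and kcnk13 were instead lowest in sort 1. In FSH cells trpc4a was at 8.42, 17.1, 12.3 and 8.39 NR in males, where it overlapped with the negative libraries at 30, 36.2, 36 and 11.2. For the sodium-proton exchanger gene slc9a5, male FSH sort 2 at 5.31 NR also exceeded negative sort 2 at 4.52.

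Only 2 members encode transcription regulators by their names. The first, nr4a2, encodes the orphan nuclear receptor Nurr1, which in mammals is induced rapidly by hormone and calcium signals. In males it was at 293, 631, 568 and 694 NR in LH cells, 87.8, 182, 73.8 and 135 in negative cells and 11.2, 9.79, 12.3 and 8.39 in FSH cells. In females it was at 454, 607, 364 and 423 NR in LH cells, 268, 54.3, 142 and 175 in negative cells and 11.9, 9.29, 7.21 and 11.8 in FSH cells. All 3 fractions stood apart in both sexes, with means of 546 ± 177 NR (SD, n = 4) in male and 462 ± 104 in female LH cells and folds over FSH of 52.4-fold and 46-fold. The second, tcf15 (LOC100694468), a bHLH factor known from the somites of the embryo, was at 33.8, 221, 209 and 108 NR in male LH, 10.7, 64.8, 14.1 and 16.8 in negative and 0.936, 14.7, 9.83 and 10.8 in FSH cells. Here the male groups overlapped at both steps, and only within each sort was the order of LH, negative and FSH kept. Female LH cells held 45.9, 73.5, 31 and 31.9 NR and FSH cells 1.4, 2.32, 2.4 and 0.905.

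**Figure D3:**
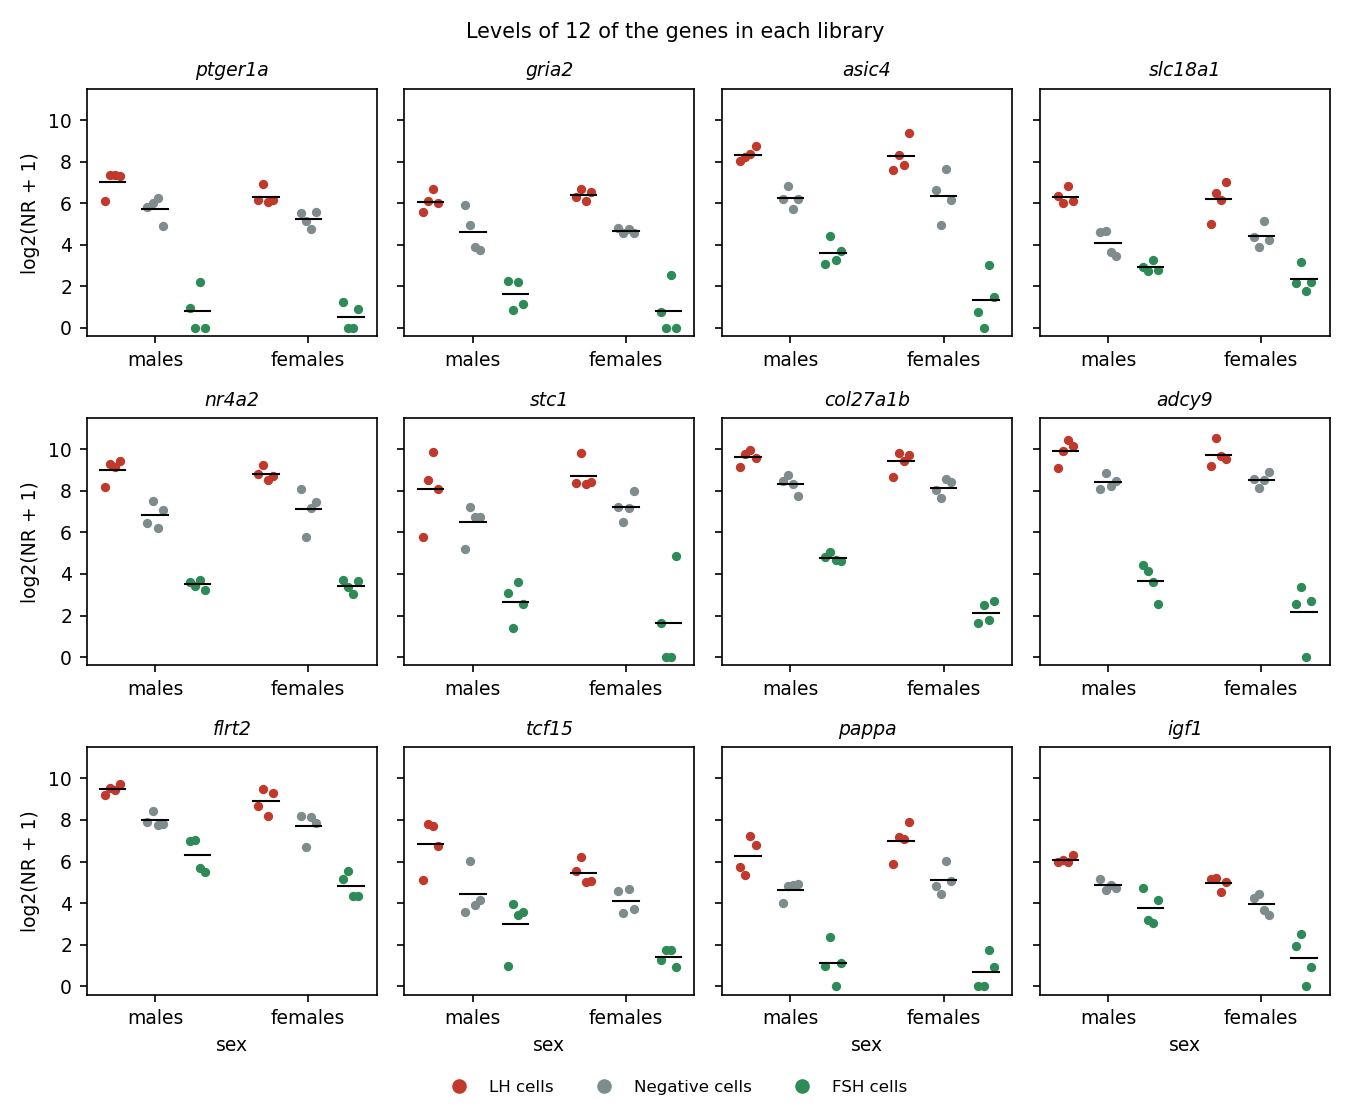
Level of 12 of the genes in each library as log2(NR + 1) (y axis), males on the left and females on the right of each panel. Points are libraries in the order of sorts 1 to 4 and short lines are means of 4 libraries, for LH, negative and FSH cells. For nr4a2 the male LH libraries lie between 293 and 694 NR and the FSH ones between 8.39 and 12.3, and for col27a1b the male FSH libraries lie higher than the female ones.

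Secreted and matrix proteins made up the largest named class, with 13 genes and a median of LH minus FSH of 4.6 in males and 4.65 in females. Stanniocalcin 1, encoded by stc1 (LOC100692284), is a hormone first known in fish for lowering blood calcium. In males it was at 54.7, 368, 929.9 and 274 NR in LH cells, 36.4, 148, 106 and 105 in negative cells and 7.49, 1.63, 11.1 and 4.8 in FSH cells. In females it was at 336, 901, 321 and 338 NR in LH cells, 148, 89.3, 145 and 253 in negative cells and 2.11, 0, 0 and 28.1 in FSH cells. The spread within a group was wide: male LH values ran from 54.7 to 930 NR and overlapped with the negative ones, and in female FSH cells 31 of the 34 reads came from sort 4.

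Pappalysin, encoded by pappa, is a metalloprotease that in mammals cleaves binding proteins of insulin-like growth factors, and igf1 encodes such a factor. For pappa the male levels were 53.1, 39.3, 151 and 109 NR in LH cells, 15, 27.1, 28.1 and 29.2 in negative cells and 0.936, 4.08, 0 and 1.2 in FSH cells. For igf1 they were 61.1, 66, 61.4 and 79 NR in LH cells, 35.3, 24.1, 28.1 and 25.8 in negative cells and 25.3, 8.16, 7.37 and 16.8 in FSH cells. The FSH level of pappa was at most 4.08 NR, whereas igf1 remained at 7.37 to 25.3 NR in male FSH cells and there overlapped with the negative cells, whose lowest value was 24.1. In females igf1 was at 34.9, 35.4, 21.9 and 31.1 NR in LH, 18.3, 21, 11.8 and 9.89 in negative and 2.81, 4.64, 0 and 0.905 in FSH cells, with no overlap, and pappa at 57.5, 144, 135 and 235, 27.4, 21, 64.7 and 33 and 0, 0, 2.4 and 0.905. The LH to FSH fold of igf1 was 4.65-fold in males, the lowest of the 75 genes with a fold, and 14.8-fold in females.

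Of the other growth factors, fgf18a (LOC100704516) was at 85.2, 125, 142 and 157 NR in male and 68.4, 53.8, 51 and 95 in female LH cells, against 0, 2.04, 4.91 and 3.6 and 2.81, 3.48, 0 and 1.81 in FSH cells. The TGF-beta family gene gdf11 (LOC100534493) was at 41.8, 67.4, 38.5 and 64 and 39.3, 43.3, 10.9 and 31.1 NR in LH cells and at no more than 3.69 in any FSH library. Female LH sort 3, at 10.9 NR, lay below 3 of the 4 female negative values of gdf11. The gene and1 (LOC100691699), which belongs to the actinodin family known from the fin folds of zebrafish, was at 191, 187, 238 and 153 NR in male and 58.2, 201, 100.2 and 198 in female LH cells, and its folds over FSH were 26.5-fold and 25.9-fold. The serine protease homologue prss35 had folds of 107-fold and 70.3-fold with 7 and 4 reads in FSH cells. The other secreted or matrix genes of the class, ndnf, fndc5b, nptx1l, col8a1 and mmel1, had mean LH levels of 21.1 to 61.0 NR, and nptx1l and col8a1 had no read in female FSH cells.

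Fibrillar collagen XXVII, encoded by col27a1b (LOC100698351, linkage group 12, bases 29218387 to 29284678), is a matrix protein of cartilage in other vertebrates. In males it was at 559.7, 886, 999.6 and 773 NR in LH cells, 359.9, 434, 326 and 214 in negative cells and 27.1, 31.8, 24.6 and 24 in FSH cells. In females it was at 408, 917, 687 and 849.7 NR in LH cells, 258, 199.5, 376 and 339.5 in negative cells and 2.11, 4.64, 2.4 and 5.43 in FSH cells. The LH values of the sexes overlapped, and so did the negative ones, whereas the 4 male FSH libraries, at 24 to 31.8 NR, all lay above the 4 female ones, at 2.11 to 5.43, on scales set separately for each sex. The gene that lies next to it, LOC102076298, starts at base 29196919 of the same linkage group and ends 7440 bases before col27a1b begins, with no annotated gene between. In LH cells this neighbour was at 227, 660.1, 1012 and 539.5 NR in males and 357, 648, 430.0 and 591 in females, and in FSH cells at 4.68, 3.67, 1.23 and 1.2 and 0, 3.48, 0 and 0.905.

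Adhesion and guidance molecules gave 4 members, whose LH minus FSH had a median of 3.21 in males and 3.31 in females. One of them, flrt2, is a leucine-rich transmembrane protein that takes part in cell adhesion and axon guidance. It was at 581, 739, 699.8 and 846 NR in LH cells, 236, 347, 216 and 227 in negative cells and 126, 130.2, 50.4 and 44.4 in FSH cells in males. It was at 409.9, 719, 295 and 626 NR in LH cells, 290.5, 102, 283 and 233 in negative cells and 34.4, 46.4, 19.2 and 19 in FSH cells in females. The groups did not overlap, and FSH cells kept 44.4 to 130 NR in males and 19 to 46.4 in females. A like remainder was seen for mcama (LOC102079346), an endothelial and tumour cell adhesion molecule in mammals, at 17.8, 37.5, 38.1 and 34.8 NR in male and 11.2, 9.29, 9.61 and 11.8 in female FSH cells against 99.7, 249, 362 and 147 and 91, 190.2, 122 and 140.4 in LH cells. The levels of mdga1 and lingo2b were low, with mean LH levels of 12.8 to 31.2 NR.

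The class of kinases and other signalling proteins had 12 members. One is adcy9, an adenylyl cyclase that makes cyclic AMP downstream of G protein-coupled receptors. In males it was at 553, 968, 1414 and 1142 NR in LH cells, 275, 464, 298 and 349 in negative cells and 20.6, 16.7, 11.1 and 4.8 in FSH cells. In females it was at 592, 1472, 809 and 734 NR in LH cells, 385, 277, 362 and 480.1 in negative cells and 4.92, 9.29, 0 and 5.43 in FSH cells. None of the groups overlapped, and the folds of LH over FSH were 76.7-fold in males and 184-fold in females. With 1019 ± 361 and 902 ± 391 NR (SD, n = 4) in LH cells, adcy9 was also one of the 5 genes with the largest LH minus FSH over both sexes.

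The kinase gene map3k15 lay close to the limit of the choice, with FSH minus negative at -1.07 in males. Its levels were 246, 465, 538 and 388 NR in male LH, 105, 158, 99.3 and 90.9 in negative and 34.6, 53.1, 81.1 and 49.2 in FSH cells, without overlap. For ckb, the brain-type creatine kinase that buffers ATP, LH cells held 217, 233, 239.5 and 219.6 NR in males and 173, 256, 175 and 251 in females, and FSH cells 36.5, 49.8, 54.1 and 24 and 24.6, 11.6, 14.4 and 12.7. The gene pde6g, whose product is the inhibitory subunit of the cyclic GMP phosphodiesterase of rods, was at 65.9, 166, 218 and 164 and 141, 173, 69.2 and 179.9 NR in LH cells and at no more than 2.46 in FSH cells. Low FSH levels were also found for gprin1, which binds G protein alpha subunits in mammals and is involved in neurite growth, at no more than 4.21 NR. The LH minus FSH differences of sphkap, cdc42ep1b, ppm1l, nim1kb, pcp4 and cabp4 lay between 2.51 and 5.51. The paper reports a separate PCP4 gene that lay above negative cells in FSH as well as LH cells of both sexes.

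Of the vesicle proteins, map1lc3cl (LOC100701181), of the LC3 family of autophagosome proteins, was at 40.2, 98.3, 283 and 70.3 NR in male and 63.3, 76.1, 94.7 and 123 in female LH cells, with 4 reads in male and none in female FSH cells. The copine gene cpne7, a calcium-dependent membrane-binding protein, was at 46.6, 149, 257 and 154 and 64.8, 113, 56.5 and 48.7 NR in LH and 15, 13.9, 14.7 and 7.19 and 11.2, 8.13, 2.4 and 3.62 in FSH cells. For apba2a (LOC100696258), an adaptor of the synaptic vesicle machinery, FSH cells held 18.7, 9.79, 8.6 and 2.4 NR in males and 0, 5.8, 2.4 and 0.905 in females.

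Another 28 members carry no gene name in the annotation used, only a number or a clone name, and 4 of them were among the 5 with the largest LH minus FSH over both sexes. LOC100700404 (linkage group 4, bases 13431533 to 13433115) was at 244, 480.3, 1145 and 449 NR in LH cells, 179, 286, 225 and 127 in negative cells and 5.62, 2.04, 3.69 and 0 in FSH cells in males. It was at 425, 669, 632 and 576 NR in LH cells, 255, 173, 315 and 319 in negative cells and 0, 0, 0 and 0 in FSH cells in females. No read was counted in the 4 female FSH libraries, so that its level in LH cells was at least 148-fold higher, while the male fold was 204-fold. Next came LOC102076298, described beside col27a1b, with folds of 226-fold and 462-fold on 16 and 4 reads in FSH cells. LOC100702849 was at 251, 664, 726 and 685 NR in male and 357, 769.9, 490.1 and 182 in female LH cells, and in females LH sort 4 at 182 lay below negative sort 4 at 205. LOC100700025 was at 188, 216, 212 and 217 and 197, 243, 109 and 417 NR in LH cells, with 2 reads in FSH cells of each sex.

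Averaged over the sexes, the gene with the most normalized reads in LH cells, counted without regard to transcript length, was LOC102078972 (linkage group 1, bases 36609955 to 36927796), although in females alone adcy9 had more, with means of 902 against 856 NR. It was at 778, 1399, 1035 and 1166 NR in LH cells, 685, 719, 385 and 395 in negative cells and 76.8, 70.2, 55.3 and 88.7 in FSH cells in males and at 589, 1217, 816 and 803, 456, 282, 427 and 412 and 39.3, 39.5, 64.9 and 30.8 in the same fractions in females. The fractions did not overlap, and the negative level was 49.9% of the LH level in males and 46.0% in females. At the other end, the 5 genes with the smallest LH minus FSH over both sexes were prr18, mmel1, igf1, si:dkey-33i11.9 and LOC106096794, with 2.69 to 3.05. For mmel1, a membrane metallopeptidase, the male mean rested mostly on sort 3, with 9.65, 11.2, 80.2 and 5.02 NR in LH cells. LOC106096794 was at 5.1, 2.62, 5.47 and 7.56 NR in female LH cells, which is close to the 3-read level.

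Near the limits of the choice, FSH minus negative was -1.05 for prr18, -1.07 for map3k15 and -1.07 for cdc42ep1b, all in males, just inside. Just outside were cyp19a1b (LOC100534396) at -0.94 in males, LOC100700119 at -0.93 in females and epha8 at -0.90 in females. On the side of LH minus FSH the members closest to the limit were mmel1 at 2.24, LOC100691061 at 2.29 and igf1 at 2.30, all in males, and no gene that met the other limit lay outside this one.

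Of the 79 genes, 67 had a position in the annotation of the O_niloticus_UMD_NMBU assembly, spread over 21 linkage groups with at most 7 on one. Of the pairs of members within 200000 bases of each other, 3 had no annotated gene between them: LOC102076298 with col27a1b on linkage group 12, tmtopsb with and1 on linkage group 9, 35270 bases apart, and LOC102079651 with LOC100706118 on linkage group 16, 39346 bases apart. The last pair stood at 468, 462, 349 and 338 and 164, 239, 188 and 212 NR in male LH cells and 2.81, 8.16, 1.23 and 1.2 and 2.81, 3.67, 1.23 and 0 in FSH cells. Other annotated genes overlap 18 of the members, among them col27a1b at its end and LOC100700077 and cabp4, whose overlapping partners are in the tables too. How the reads were assigned by strand is not given in the sources used here, so reads in such stretches may belong to either gene.

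Across the 79 genes LH minus FSH in males and females had a Pearson r of 0.81 and FSH minus negative of 0.81, whereas LH minus negative had 0.29. Over the 1309 genes the values were 0.96, 0.92 and 0.73. These are descriptions across genes that share their libraries, and the choice narrowed the range of the 79. LH minus FSH was larger in females for 56 of the 79 genes, FSH minus negative was lower in females for 64, and LH minus negative was larger in males for 52. These counts depended on the processing. The count for LH minus negative was 12 after the median of all genes was subtracted, 13 with TMM factors and 26 without sort 3 of both sexes. That for FSH minus negative was 54 at a pseudocount of 5 and 54 after the subtraction. LH minus FSH was larger in males for 23 genes as deposited, 33 at a pseudocount of 5 and 17 after the subtraction. Over the 1309 genes the median male minus female difference was 0.29 for FSH minus negative and 0.28 for LH minus FSH. As deposited, trpc4a had LH minus negative of 2.29 in males and 1.21 in females, and LOC100693577 had 0.85 and 2.30.

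**Figure D4:**
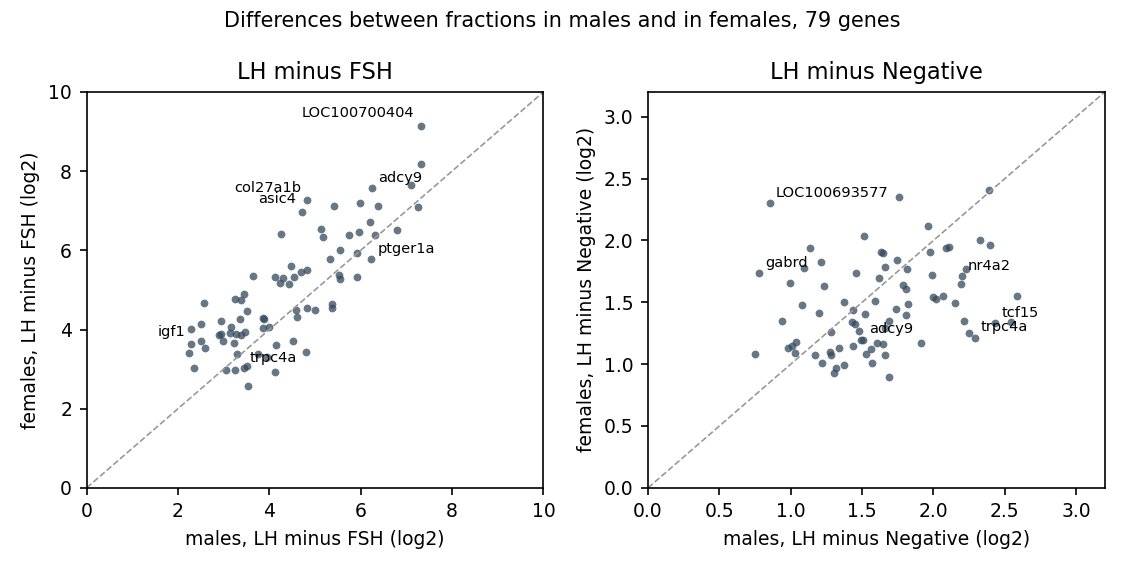
Difference of mean log2(NR + 1) in males (x axis) and females (y axis) for the 79 genes, LH minus FSH on the left and LH minus negative on the right. Each dot is a gene and the dashed line marks equal differences. On the left the dots follow the line with r of 0.81 and 56 lie above it, and on the right r is 0.29.

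Whether a difference between fractions itself differed between the sexes was tested with limma, as a sex by fraction term in one fit of the 24 libraries and the 1309 genes. The rule did not use this difference itself, but it held both sexes to the same limits. For LH minus negative, each of the 79 genes entered both tables through LH cells, which narrows the room for a sex difference. Other genes of the 1309 could enter through FSH cells, so the shares called there do not compare like sets. For FSH minus negative, 2 of the 79 genes were called at an adjusted p below 0.05, where 1.38% of the 1309 genes were called. The first was col27a1b, for which the FSH level lay -3.55 from the negative level in males and -6.01 in females on the log2 scale. The male minus female difference was 2.47 with an SE of 0.40 (limma, adjusted p = 0.000417). The second was LOC100704867, at 2.81, 4.9, 2.46 and 3.6 NR in male and 1.4, 0, 0 and 0 in female FSH cells against negative levels of 27.8, 21.1, 23.7 and 30.3 and 36.5, 22.8, 69.4 and 56. Its difference was 2.52 with an SE of 0.58 (limma, adjusted p = 0.0188). With only 2 reads in the female FSH libraries, that value depends on the pseudocount, and with a pseudocount of 5 the adjusted p was 0.13. Without sort 3 of both sexes the adjusted p was 0.0532 for col27a1b and 0.266 for LOC100704867. For LOC100704867 it was also 0.0691 without sort 2 and 0.141 without sort 4, again of both sexes. It was 0.0546 with TMM factors, 0.0594 with edgeR and 0.083 after the median of all genes was subtracted. Over the 12 alternatives the adjusted p ran from 0.000218 to 0.0532 for col27a1b and from 0.00701 to 0.266 for LOC100704867.

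Fractions with the same sort number came from one pool, and with the sort as a block in the fit the number called for FSH minus negative rose from 2 to 4, with LOC100700404 (adjusted p = 0.0317 by limma) and asic4 (adjusted p = 0.0253) added. Over all genes the block raised it from 18 to 40. For LH minus FSH, 1 of the 79 genes was called, where 0.306% of the 1309 genes were called: col27a1b again, with 4.83 in males, 7.27 in females and a male minus female difference of -2.44 with an SE of 0.40 (limma, adjusted p = 0.000727, and 0.000139 to 0.0383 over the alternatives). This call and the one above rest on the same FSH libraries. For LH minus negative, none of the 79 genes was called by limma, where 12.8% of the 1309 genes were, and 0 were below an unadjusted p of 0.05, against 378 of the 1309. With edgeR and with DESeq2 on recovered reads 0 and 0 of the 79 were called, against 153 and 197 of the 1309, and 1 of the 79 by each was below an unadjusted p of 0.05. For FSH minus negative 19 of the 79 and 227 of the 1309 genes were below an unadjusted p of 0.05 by limma, and for LH minus FSH 17 and 158.

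Over the 1309 genes the median male minus female difference was 0.53 for LH minus negative and 0.29 for FSH minus negative. With TMM factors these medians were 0.015 and 0.29. Over the 79 genes these medians were 0.20 and 0.75, and that of LH minus FSH was -0.64 beside 0.28. After the median of all genes was subtracted, the 79 genes had medians of -0.33 for LH minus negative, 0.47 for FSH minus negative and -0.91 for LH minus FSH. The medians of the 79 depended on the pseudocount. At a pseudocount of 5, FSH minus negative had 0.31 over the 79 genes and 0.31 over the 1309, and LH minus FSH -0.18 and 0.23. At a pseudocount of 0.5 the 79 genes had 0.96 for FSH minus negative and -0.87 for LH minus FSH.

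**Figure D5:**
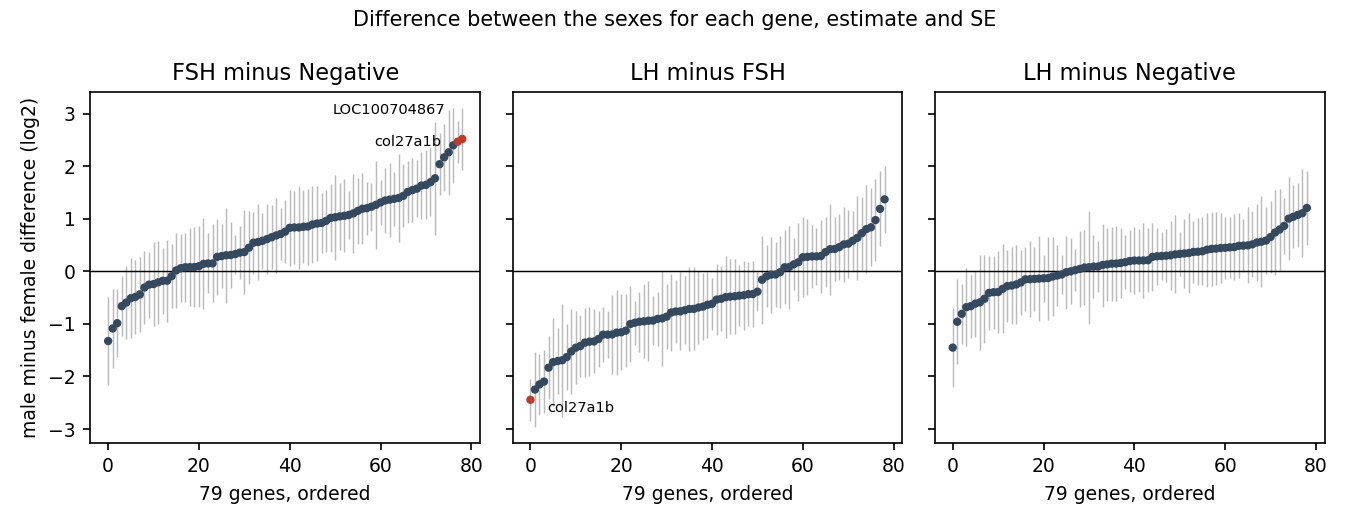
Male minus female difference (y axis, log2) of FSH minus negative, LH minus FSH and LH minus negative for the 79 genes in ascending order (x axis). Points are limma estimates, bars are 1 SE and red points are genes with an adjusted p below 0.05. On the left col27a1b is at 2.47 and LOC100704867 at 2.52, in the middle col27a1b is at -2.44, and on the right no gene is red.

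None of the 79 genes is in the lists of markers of other pituitary, immune, vessel or nerve cells. Most listed markers are not in both tables, from which the 79 genes were drawn. This absence was therefore largely fixed beforehand, and nothing is read from it. In the paper, pomc and the somatolactin gene, which are in neither table here, took the same order of fractions as the 79 in both sexes. Their LH levels lay only slightly above the negative ones. The paper names a small contamination or expression in LH cells as possible reasons, which was not tested here. Other hormone genes in the paper, those of growth hormone, prolactin and thyrotropin, were lower in LH than in negative cells in both sexes. Their fold changes against negative cells were lower still in FSH cells. They thus shared with the 79 an FSH level below LH and negative cells, but not LH above negative cells. From the marker lists of hormone cells, pcsk1, pcsk2 and LOC100710271, counted here as ghrhr, were in both tables. All were highest in FSH cells in both sexes, with pcsk1 at means of 2698 NR in male and 1641 in female FSH cells. The paper instead names LOC100710271 a receptor of pituitary adenylate cyclase-activating polypeptide, so its place among the hormone cell markers is uncertain. Those markers of macrophages that were in the female table took the order of the 79 genes. A marker low in FSH cells could stand in a table only through LH cells. For such markers, here and below, LH above negative was thus fixed beforehand, and nothing is read from it. For that list of 16 the female table held 9 entries, with cd74 present both as cd74 and as LOC100706178. Their summed level was 13780, 6041, 14680 and 12100 NR in LH libraries, 4524, 4383, 3001 and 3141 in negative and 671 to 1323 in FSH libraries. Most of it was cd74: without its entries the sums were 1742, 656, 2505 and 2522 NR in LH and 154, 249, 426 and 188 in negative libraries. The receptor csf1r, which defines these cells, was at 359, 104, 446 and 498 NR in LH cells and at 0 in every FSH library. In negative cells csf1r was at 10.1% of its LH level and the 9 entries at 10.1 to 36.8%. Of 13 endothelial markers 3 were in the female table. Among them sox17 and kdrl (LOC100707615) were highest in LH cells, with means of 44.8 and 78.9 NR, against 11.1 and 29.4 in negative and 0 and 4.43 in FSH cells, whereas esam (LOC100700226) was highest in FSH cells, at 14.4 NR against 2.87 in LH and 5.29 in negative cells. The negative level was 24.7% of the LH level for sox17 and 37.3% for kdrl. The summed endothelial level was 74.0 to 203 NR in female LH, 29.2 to 72.5 in negative and 4.80 to 38.9 in FSH libraries. In males cdh5 (LOC100711438) was at a mean of 36.4 NR in LH, 16.3 in negative and 10.5 in FSH cells, and esam at 6.82, 9.31 and 30.8. Of the stem and folliculostellate markers only fabp7 (LOC100690908) was in a table, at 24.2 NR in female LH, 10.3 in negative and 3.36 in FSH cells. Female LH sort 2, which had the highest mean of the 79 genes, at 6.65, had the lowest macrophage sum. The endothelial markers differed there. The kdrl level was the highest, at 178 NR against 26.9, 78.3 and 31.9 in sorts 1, 3 and 4. The sox17 level was the lowest, at 23.6 NR against 52.4, 63.8 and 39.5. Of the 16, only gpr34 was among the male genes, at a mean of 36.8 NR in LH, 11.6 in negative and 4.0 in FSH cells. The part of these cells in the levels of the 79 genes was not tested.

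Scaled by TMM factors in place of the deposited size factors, all 79 genes kept LH above FSH and FSH below negative in both sexes. The factors came from tables already limited to genes higher in gonadotrophs than in negative cells. Over all genes they shifted FSH minus negative by a median of -1.422 in males and -1.435 in females. The kept order was thus favoured beforehand, and nothing is read from it. LH minus negative moved with the scaling, since its median over all genes shifted by -1.03 in males and -0.51 in females. The median over the 79 was then 0.59 in males, where 72 genes remained above 0, and 0.93 in females, where 79 did. Above 1 were 17 genes in males and 33 in females, against 73 and 75 as deposited.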

How the data were processed

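RNA sequencing libraries of sorted LH, FSH and negative cells were analysed, 12 per sex. After trimming, the authors aligned reads by STAR (O_niloticus_UMD_NMBU), discarded those of ribosomal or bacterial origin and assigned uniquely aligned ones to genes. Per the labels and methods, the deposited signal is the reads of a gene over a DESeq2 size factor of its library (NR). Each sex has its own table, limited to genes whose fold change over negative cells passed the authors' limit for either gonadotroph, 2392 for males and 1849 for females. Their other 2 files hold their own fold changes and adjusted p-values and were not used. In the male table the first values stand beside a leftover header word and the last name beside no values, so each name, 1 row below its values, was moved up.

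The genes and the lists were chosen with earlier results of these data known. All values (100%) were whole multiples of 1 read, within 0.1 read, so reads were recovered, with size factors of 0.416 to 2.45. Differences are of mean log2(NR + 1). For the sex by fraction term limma 3.58.1 was run in R 4.3.3 (24 libraries, 6 groups, mean-variance trend, Benjamini-Hochberg adjustment over 1309 genes), and calls within a sex over its table. The alternatives were pseudocounts of 0.5 and 5, a mean of at least 10 NR, TMM factors, subtraction of the median, a block by sort, edgeR 4.0.16 quasi-likelihood and DESeq2 1.42.0 on recovered reads, and each sort number left out. Leaving out a sort number removed the male and the female sort of that number together. The fit was tested on simulated data. Per the paper, the fish of all pools grew in a single tank and were sampled from it at random. The p-values therefore measure the spread between pools from this tank only.

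Same-numbered fractions of a sex come from one sort of one pool, per the series design. Their deviations from the group means correlated at 0.0378 to 0.499 in males and -0.213 to 0.212 in females. Text names the 10 genes with the most NR in LH cells, the 5 largest and 5 smallest differences of LH and FSH, 3 on each side of a limit, genes called between the sexes, and at most 6 by value in each class of annotated products. The values of 1 member, a signalling protein, are not reported here. Names and positions of 67 genes come from refseq annotation, by symbol for 37, gene number for 29 and synonym for 1, and 12 kept the name in the tables. Python 3.11.15 with numpy 2.4.6, pandas 2.3.3 and matplotlib 3.10.9 was used.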

Additional observations from a re-analysis of the deposited data

Results flagged for a closer look

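The difference between the sexes stood out for 2 genes by the limma test of the interaction. For col27a1b (LOC100698351) FSH minus negative differed by 2.47 between males and females on the log2 scale (adjusted p = 0.000417) and LH minus FSH by -2.44 (adjusted p = 0.000727). All 4 male FSH libraries lay above all 4 female ones, on scales set separately for each sex. For LOC100704867 FSH minus negative differed by 2.52 (adjusted p = 0.0188), with 20 reads in male and 2 in female FSH libraries. No group had a library whose mean over the 79 genes stood apart from the others beyond Dixon's 95% limit, and the largest gap was 0.708 of the range, for LH sort 1 in males. Gene by gene, 10 of the 79 had such a library among the male LH libraries, and it was sort 1 for 8 of them. Chance flags about 1 in 20 groups.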

How the results depend on the processing

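The number of genes under the rule was 79. It ran from 74 to 81 when each sort number was left out in both sexes together, with 73 to 77 of the 79 among them. It was 81 at a pseudocount of 0.5, 60 at 5, 74 with a mean of at least 10 NR, 126 with TMM factors (all 79 among them), 51 with both limits at 2 and 69 when overlap of libraries was not allowed.

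At a pseudocount of 5 the median over the 79 genes of LH minus FSH moved from 4.24 to 3.16 in males and from 4.54 to 3.38 in females, and that of FSH minus negative from -2.61 to -1.66 and from -3.15 to -2.04. A pseudocount of 0.5 gave 5.17 for LH minus FSH in females. TMM factors gave 5.04 for LH minus FSH in females, -3.68 and -4.14 for FSH minus negative in males and females and 0.59 for LH minus negative in males.

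In the sex difference of FSH minus negative, 2 of the 79 genes were called. The count was 1 at a pseudocount of 5, after the median was subtracted, with TMM factors and with edgeR, 3 at a pseudocount of 0.5, 8 with DESeq2 and 4 with the replicate block. It was 0 to 2 when a sort number was left out. In LH minus FSH 1 was called, 2 at a pseudocount of 0.5, and 1 to 2 when a sort number was left out. The block changed no other count of the 79. In LH minus negative 0 were called under each of the 12 alternatives, and the smallest adjusted p was 0.0704. The cause of these moves was not tested.

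Over all 1309 genes, the count of sex differences in LH minus negative fell from 167 to 11 after the median was subtracted and to 12 with TMM factors. It was 8 without sort 3 of both sexes and 244 with the block. That of FSH minus negative was 18, with 3 to 20 when a sort number was left out, 6 after the median was subtracted, 33 with TMM factors, 40 with the block and 62 with DESeq2. That of LH minus FSH was 4, 8 with TMM factors and 2 without sort 2 or 3 of both sexes. In females 57 to 73 of the 79 genes were at or below 3 reads in an FSH library, which limits the size of the differences there.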
